A study of Mus musculus with 8 samples.

Results

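The keratins of the inner root sheath and companion layer of the hair follicle were examined in whole skin of newborn FVB mice, an inbred albino strain. The members were all probe sets whose only gene symbol in the array annotation was Krt25, Krt26, Krt27, Krt28, Krt71, Krt72, Krt73, Krt74 or Krt75. Of these 9 genes 5 were found (Krt25, Krt27, Krt71, Krt72 and Krt75), with 1 probe set each, so there were 5 member genes among the 12393 genes with a probe set of their own, and 22626 probe sets were tested in all. Krt26, Krt28, Krt73 and Krt74 were not analysed here, and Krt74 is a transcribed pseudogene in the mouse RefSeq annotation. The arrays covered 4 genotypes of the retinoblastoma protein pRb (gene Rb1) and the related pocket protein p107 (gene Rbl1), both of which bind E2F factors and restrain the cell cycle. Skin was pRb-/-;p107-/-, pRb+/+;p107-/-, pRb-/-;p107+/+ or pRb+/+, with 2 arrays of each. The pRb+/+ labels give no p107 genotype, which was taken as wild-type. Each array held RNA pooled from 3 animals, and the labels do not say whether the 2 arrays of a genotype were separate pools, so the p-values below measure the spread between duplicate arrays, which may be technical. The labels used here do not tell how each gene was deleted or in which skin cells.

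The inner root sheath is the rigid tube that surrounds and moulds the growing hair shaft, and the companion layer is the single sheet of cells between that tube and the outer root sheath. Both arise from the proliferating matrix of the hair bulb and are made only while a follicle grows. Keratins form filaments as pairs of a type I and a type II chain. Krt25 and Krt27 encode type I chains of the inner root sheath, Krt71 and Krt72 encode type II chains of the same sheath, and Krt75 encodes the type II keratin of the companion layer. In humans the Krt72 product is restricted to the cuticle of the sheath, while the Krt25, Krt27 and Krt71 products are found in all of its layers. Mutations of Krt71 give mice a wavy or curly coat, and newborn mouse skin holds follicles at several stages of their first growth.

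The 5 genes lie in the keratin clusters, Krt25 and Krt27 on chromosome 11 and Krt71, Krt72 and Krt75 on chromosome 15. Their promoter windows, from 250 bases before to 50 bases after the gene start, are shown because the 5 genes changed together and the windows can be compared. The RefSeq sequences (GRCm38.p6, all genes on the minus strand, written 5′ to 3′ along the gene) are from chr11:99322902-99323201 for Krt25, chr11:99351069-99351368 for Krt27, chr15:101743048-101743347 for Krt71, chr15:101786471-101786770 for Krt72 and chr15:101573855-101574154 for Krt75. Capitals mark the TATA box letters TATAAA and the GATA letters AGATAA or TGATAA, on either strand.
Krt25: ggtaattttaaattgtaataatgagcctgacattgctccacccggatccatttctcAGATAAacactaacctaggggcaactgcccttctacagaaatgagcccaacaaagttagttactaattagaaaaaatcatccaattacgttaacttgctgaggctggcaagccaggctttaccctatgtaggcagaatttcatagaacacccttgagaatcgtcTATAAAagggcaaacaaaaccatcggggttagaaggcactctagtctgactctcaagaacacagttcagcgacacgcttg
Krt27: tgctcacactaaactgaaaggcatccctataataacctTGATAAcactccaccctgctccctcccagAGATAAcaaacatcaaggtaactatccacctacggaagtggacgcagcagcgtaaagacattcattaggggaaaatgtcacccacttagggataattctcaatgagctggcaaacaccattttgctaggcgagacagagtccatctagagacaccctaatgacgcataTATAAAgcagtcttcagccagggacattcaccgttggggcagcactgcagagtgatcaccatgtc
Krt71: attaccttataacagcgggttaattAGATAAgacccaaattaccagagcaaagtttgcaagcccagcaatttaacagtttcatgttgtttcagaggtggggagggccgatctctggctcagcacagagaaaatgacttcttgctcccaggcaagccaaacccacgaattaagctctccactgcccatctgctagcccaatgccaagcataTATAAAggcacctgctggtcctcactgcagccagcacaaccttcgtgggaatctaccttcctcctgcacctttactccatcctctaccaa
Krt72: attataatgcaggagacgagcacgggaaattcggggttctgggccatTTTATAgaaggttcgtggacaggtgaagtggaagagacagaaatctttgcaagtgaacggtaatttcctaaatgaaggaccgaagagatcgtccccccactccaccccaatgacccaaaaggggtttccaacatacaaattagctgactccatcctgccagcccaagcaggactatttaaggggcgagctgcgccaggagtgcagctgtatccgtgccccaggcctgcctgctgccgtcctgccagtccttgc
Krt75: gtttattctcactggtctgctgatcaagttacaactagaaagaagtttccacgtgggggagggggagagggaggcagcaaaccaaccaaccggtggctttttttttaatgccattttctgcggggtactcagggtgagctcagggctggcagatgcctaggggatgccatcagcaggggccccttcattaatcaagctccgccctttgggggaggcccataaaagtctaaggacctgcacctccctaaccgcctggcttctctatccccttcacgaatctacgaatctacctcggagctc

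The TATA box letters were found in 4 of the 5 windows, against 13.6% of 32851 mouse promoter windows of this length. In Krt25, Krt27 and Krt71 they lay on the gene's own strand, with the first base at -30, -15 and -40 relative to the gene start, and 2.11% of all windows held them on that strand between -40 and -15, a range set after the fact from these 3 positions. In Krt72 they lay on the opposite strand at -203, and the Krt75 window held none. GATA letters, which the sheath regulator GATA3 and its relatives recognise, were found in Krt25 at -194, in Krt27 at -212 and -183 and in Krt71 at -225, and in 18.6% of all windows. Letters of LEF and TCF sites (CTTTGAA or CTTTGAT), of an AP-1 site (TGACTCA) and of E2F sites (TTTCCCGC, TTTGGCGC or TTTCGCGC) were in 0 of the 5 windows and in 8.65%, 5.2% and 1.84% of all windows. These searches covered both strands and describe letters in a window, not binding.

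All 5 keratins were lower in skin that lacked p107, on every array and with or without pRb. The deposited values are scores with mean 0 and SD 1 for each probe set over the 8 arrays, so a difference of 1 is 1 SD of that gene and neither a level nor a fold change can be read from it. Across the 5 genes the 4 p107-/- arrays ran from -1.44 to -0.18, against 0.42 to 1.49 on the 4 arrays that kept p107. Every gene therefore split the arrays by p107 status without overlap, with a gap between the groups of 0.72 for Krt71 to 1.36 for Krt75. Of all probe sets tested, 8.23% were lower on all p107-/- arrays without overlap. In whole skin, fewer sheath cells and less keratin RNA per sheath cell cannot be told apart.

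Of the type I sheath keratins, Krt25 had scores of -1.03 and -1.33 on pRb-/-;p107-/- arrays, -0.54 and -0.59 on pRb+/+;p107-/- arrays, 0.51 and 0.66 on pRb-/-;p107+/+ arrays, and 0.9 and 1.42 on pRb+/+ arrays. The 4 genotypes stood in that order without overlap. Krt27 had -1.11 and -1.42 on pRb-/-;p107-/- arrays, -0.55 and -0.37 on pRb+/+;p107-/- arrays, 0.82 and 0.42 on pRb-/-;p107+/+ arrays, and 1.28 and 0.92 on pRb+/+ arrays. Its genotypes had the same order, again without overlap.

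Of the type II sheath keratins, Krt72 had -1.15 and -1.16 on pRb-/-;p107-/- arrays, -0.6 and -0.58 on pRb+/+;p107-/- arrays, 0.49 and 0.66 on pRb-/-;p107+/+ arrays, and 0.86 and 1.49 on pRb+/+ arrays. It followed Krt25 closely, although the 2 genes lie on different chromosomes. Krt71 had -1.16 and -1.44 on pRb-/-;p107-/- arrays, -0.63 and -0.18 on pRb+/+;p107-/- arrays, 1.2 and 0.93 on pRb-/-;p107+/+ arrays, and 0.73 and 0.54 on pRb+/+ arrays. Its arrays did not overlap between genotypes either, but it was highest in pRb-/-;p107+/+ skin rather than in pRb+/+ skin. The companion layer keratin Krt75 had -0.99 and -1.05 on pRb-/-;p107-/- arrays, -0.74 and -0.85 on pRb+/+;p107-/- arrays, 1.33 and 0.62 on pRb-/-;p107+/+ arrays, and 0.66 and 1.03 on pRb+/+ arrays. The 2 genotypes that kept p107 overlapped in Krt75, and no other pair of genotypes overlapped in any of the 5 genes.

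**Figure D1:**
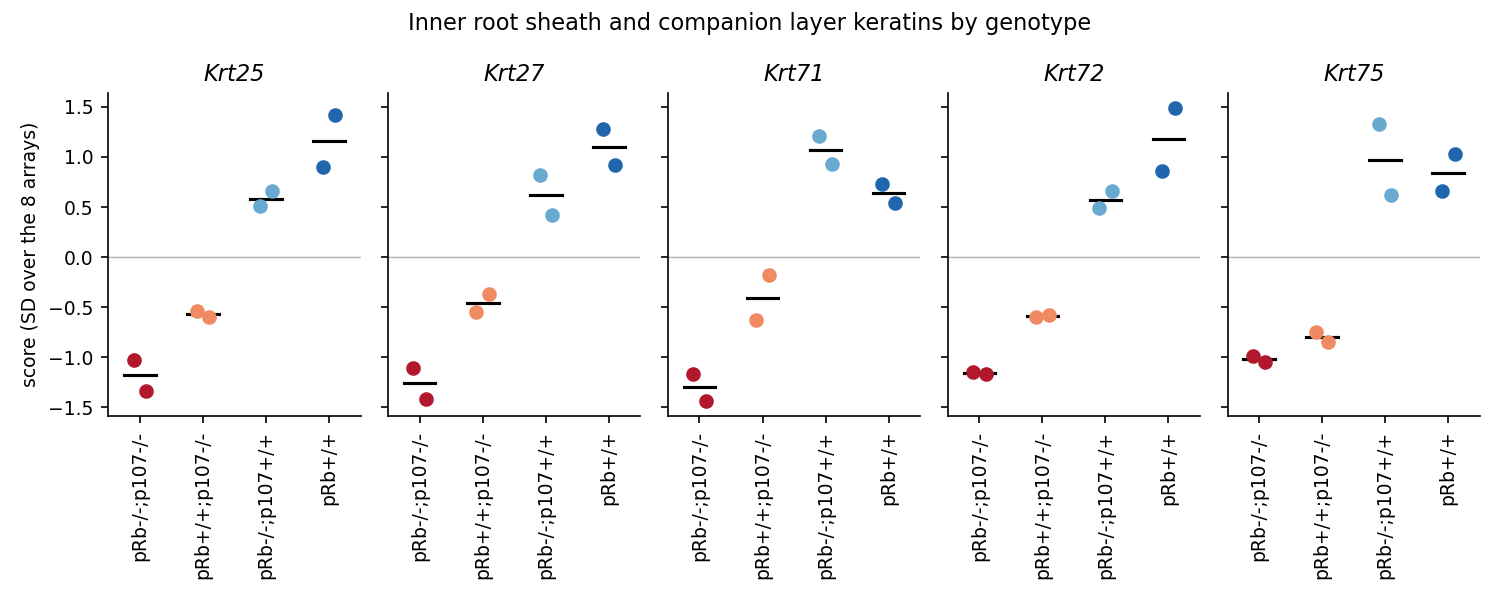
Scores of the 5 keratins (y axis, in SD of each gene over the 8 arrays) by genotype, with a point for each array and a line at the mean of the 2 arrays. In every panel the 4 p107-/- arrays lie below 0 and the 4 arrays that kept p107 lie above it.

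Averaged over both pRb genotypes, all 5 keratins fell with p107 loss. The difference was -1.75 ± 0.15 for Krt25, -1.72 ± 0.16 for Krt27, -1.7 ± 0.16 for Krt71, -1.75 ± 0.16 for Krt72 and -1.82 ± 0.2 for Krt75 (SE, limma linear model without moderation). The adjusted p-values of this model were 0.0312, 0.0334, 0.0321, 0.0325 and 0.0418, with Benjamini-Hochberg adjustment over all 22626 probe sets and a threshold of 0.05. Among all probe sets 1.78% passed in this direction, and their median difference was 0.17. Of all probe sets, 24 had a difference as low as that of Krt75 or lower and 306 one as low as that of Krt71 or lower. Calls rested on the full set of 8 arrays: with any 1 array left out the differences stayed between -1.99 and -1.59, but none of the 5 passed except Krt72 without pRb+/+ replicate 1 (adjusted p = 0.0454). The adjusted p otherwise reached 0.177 in the linear model, with an unadjusted p of at most 0.00608. Every call here and below also rests on the choice of a test without moderation, made with it known that limma's moderated test calls 0 probe sets on these scores. The moderated test called 0 of the 5 keratins (adjusted p = 0.106 for each, unadjusted p at most 0.00336).

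Some control probe sets moved with p107 status as well. The 24 poly-A controls averaged -0.96 to -0.55 on the p107-/- arrays, against 0.19 to 1.38 on the arrays that kept p107. The 18 hybridization controls averaged -0.8 to -0.32 on the p107-/- arrays, against -0.03 to 2.05 on the arrays that kept p107. The 3 Gapdh controls averaged -0.03 to 0.8 on the p107-/- arrays, against -1.52 to 0.84 on the arrays that kept p107, and the 3 beta-actin controls averaged -1.08 to 0.05, against -0.86 to 1.41. Both of these overlapped between p107 statuses. Which probe sets count as poly-A controls was settled after their values, and an earlier count of them, were seen. The part of the poly-A and hybridization controls in the keratin differences was not tested, and p107 status cannot be told apart from this difference between arrays. Of the targeted genes, Rb1 had scores of -1.56 and -1.28 on pRb-/-;p107-/- arrays and -0.22 and 0.36 on pRb-/-;p107+/+ arrays. It had 0.02 and 0.4 on pRb+/+;p107-/- arrays and 1.21 and 1.07 on pRb+/+ arrays, so the pRb-/-;p107+/+ and pRb+/+;p107-/- arrays overlapped. The first Rbl1 probe set was -0.31 and 0.31 on pRb-/-;p107-/- arrays and -1.51 and -1.22 on pRb+/+;p107-/- arrays, against 1.3 and 1.14 on pRb-/-;p107+/+ arrays and 0.08 and 0.21 on pRb+/+ arrays. The other Rbl1 probe set was -0.13 and -0.2 on pRb-/-;p107-/- arrays and -1.53 and -1.12 on pRb+/+;p107-/- arrays, against 1.4 and -0.02 on pRb-/-;p107+/+ arrays and 0.58 and 1.03 on pRb+/+ arrays. The pRb-/-;p107-/- arrays thus overlapped the pRb+/+ arrays in the first Rbl1 probe set and lay below them in the other. Since the position of these probes relative to the deletions is unknown, they check the labels only in part.

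The same difference was then taken within each pRb genotype. In pRb-/- skin, p107 loss went with differences of -2.37 ± 0.22 for Krt71, -1.99 ± 0.28 for Krt75, -1.88 ± 0.23 for Krt27, -1.77 ± 0.22 for Krt25 and -1.73 ± 0.23 for Krt72. Only Krt71 passed (limma linear model, adjusted p = 0.0429), and 0.822% of all probe sets passed downward. The other 4 had adjusted p-values from 0.061 to 0.0759. Krt71 did not pass without any 1 of the 8 arrays (differences from -2.51 to -2.23, adjusted p from 0.105 to 0.207). With array medians subtracted Krt71 did not pass, and after quantile normalization Krt75 passed in its place. In pRb+/+ skin, p107 loss went with differences of -1.77 ± 0.23 for Krt72, -1.73 ± 0.22 for Krt25, -1.64 ± 0.28 for Krt75, -1.56 ± 0.23 for Krt27 and -1.04 ± 0.22 for Krt71. None of the 5 passed there (limma linear model, adjusted p from 0.0784 to 0.137, all 5 with an unadjusted p of at most 0.00932), against 0.217% of all probe sets that passed downward. Krt75 passed after quantile normalization (adjusted p = 0.041).

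**Figure D2:**
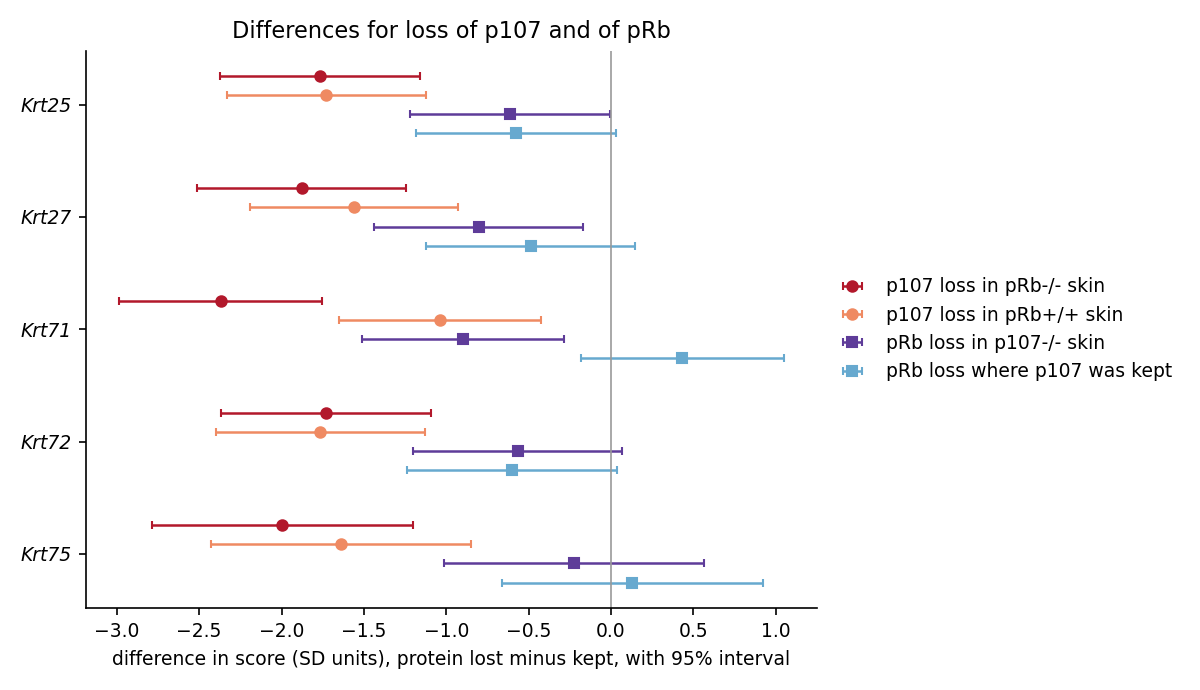
Differences in score (x axis, SD units, protein lost minus kept) for each keratin, with 95% intervals of the linear model. The circles for p107 loss lie below 0 with their whole intervals in both pRb genotypes, while the squares for pRb loss lie nearer 0, and those of Krt71 and of Krt75 stand on opposite sides of it.

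Differences for pRb loss were nearer 0 and none passed. Averaged over both p107 genotypes the differences were -0.65 ± 0.16 for Krt27, -0.6 ± 0.15 for Krt25, -0.58 ± 0.16 for Krt72, -0.23 ± 0.16 for Krt71 and -0.05 ± 0.2 for Krt75. None of the 5 passed (limma linear model, adjusted p from 0.266 to 0.952), though 3 had an unadjusted p below 0.05, and 0.053% of all probe sets passed downward. The 95% interval for Krt75 ran from -0.6 to 0.51, so a difference of that size either way is not excluded by these arrays.

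Where p107 was kept, pRb loss gave differences of -0.6 ± 0.23 for Krt72, -0.58 ± 0.22 for Krt25 and -0.49 ± 0.23 for Krt27, against 0.43 ± 0.22 for Krt71 and 0.13 ± 0.28 for Krt75. None passed (limma linear model, adjusted p from 0.394 to 0.888, 0 of the 5 with an unadjusted p below 0.05), and 0% of all probe sets passed downward. In p107-/- skin the differences were -0.9 ± 0.22 for Krt71, -0.8 ± 0.23 for Krt27, -0.61 ± 0.22 for Krt25, -0.57 ± 0.23 for Krt72 and -0.22 ± 0.28 for Krt75. These did not pass either (adjusted p from 0.274 to 0.838, 3 with an unadjusted p below 0.05), and 0.0796% of all probe sets passed downward. The median difference over all probe sets was -0.33 here, and 27.7% had a difference as low as that of Krt71 or lower.

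Krt71 had the most negative interaction of the 2 losses among the 5 genes. The interaction, which is the p107 difference in pRb-/- skin minus that in pRb+/+ skin, was -1.33 ± 0.31 for Krt71 (95% interval -2.2 to -0.46) and did not pass (limma linear model, adjusted p = 0.238, unadjusted p = 0.0131). For the other 4 it lay between -0.35 and 0.04, with adjusted p-values from 0.739 to 0.976, and 0% of all probe sets passed downward. Over all probe sets the median interaction was -0.44, and 28.4% had one as low as that of Krt71 or lower. The lowest interaction among the 5 genes was -0.93 after quantile normalization and -0.87 with array medians subtracted. Whether Krt71 differs from the other 4 in this was not tested. For loss of both proteins, the pRb-/-;p107-/- arrays set against pRb+/+ skin, 4 keratins fell, with differences of -2.36 ± 0.23 for Krt27, -2.34 ± 0.22 for Krt25, -2.33 ± 0.23 for Krt72 and -1.94 ± 0.22 for Krt71 (limma linear model, adjusted p from 0.0324 to 0.0434). The Krt75 difference was -1.86 ± 0.28 and did not pass (adjusted p = 0.0635). With array medians subtracted, and after quantile normalization, Krt75 passed and Krt71 did not, and after quantile normalization Krt72 did not pass either. With 1.54% of all probe sets passing downward, 4 of the 5 passed here, and 0 passed without any 1 of the 8 arrays, with differences from -2.64 to -1.68. Across all 4 genotypes, the F test of the model called 0 of the 5 (adjusted p from 0.0686 to 0.0932, unadjusted p at most 0.00395), against 1.28% of all probe sets.

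The scores of each gene can also be divided among the factors of the design. p107 status held 94.4% of the sum of squares of Krt75, 87.3% of Krt72, 87.1% of Krt25, 84.4% of Krt27 and 83% of Krt71, against a mean of 27.7% over all probe sets. The next share was pRb status in Krt27 (11.9%), Krt25 (10.1%) and Krt72 (9.71%), but the interaction in Krt71 (12.7%). These shares lay below the means over all probe sets, 15.7% for pRb status and 16.4% for the interaction. The mean was taken in place of the median, after both were seen, because mean shares add up to the whole. Duplicate arrays held 2.73% to 4.62% in the 5 genes, against a mean of 40.2% over all probe sets.

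**Figure D3:**
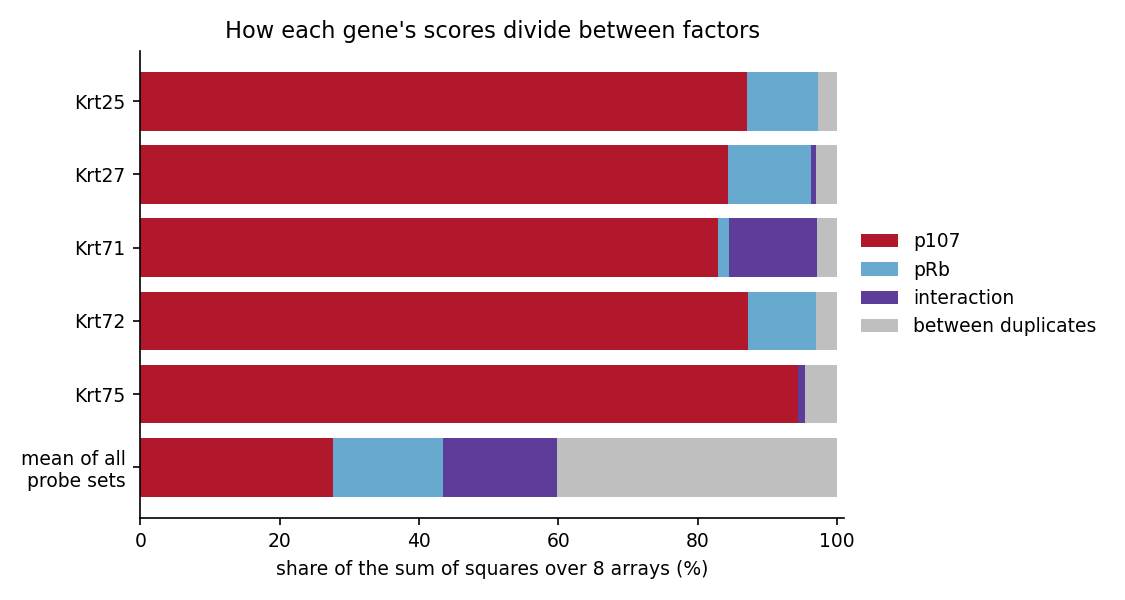
Share of each gene's sum of squares over the 8 arrays (x axis, %) that fell to p107 status, pRb status, their interaction and the duplicates, with the mean over all probe sets in the bottom bar. The p107 part is the largest in all 5 keratins, at 83% to 94.4%.

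The 5 genes also followed each other over the 8 arrays, as a description. Pearson's r ran from 0.876 for Krt71 with Krt72 to 0.996 for Krt25 with Krt72 over the 10 pairs, where all points share the arrays and the genotype split. The highest r thus joined a type I and a type II gene, the lowest joined neighbours on chromosome 15, and Krt25 with Krt27, both on chromosome 11, had 0.957.

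Among 12388 other genes, each represented by 1 probe set, 78 had an r of 0.95 or more with the mean score of the 5 keratins. The 8 highest were Atp5e (0.996), Nid1 (0.992), Ccnd1 (0.992), Bbip1 (0.986), Ndufb10 (0.984), Ptger4 (0.984), Mrpl16 (0.984) and Cers4 (0.984). They encode a subunit of ATP synthase, the basement membrane protein nidogen, cyclin D1, a subunit of the ciliary BBSome, a subunit of respiratory complex I, a prostaglandin E2 receptor, a mitochondrial ribosomal protein and a ceramide synthase. Cyclin D1 had scores of -1.16 and -1.33 on pRb-/-;p107-/- arrays, -0.39 and -0.68 on pRb+/+;p107-/- arrays, 1.03 and 0.65 on pRb-/-;p107+/+ arrays, and 0.87 and 1.01 on pRb+/+ arrays. Its other 2 probe sets, with r of 0.881 and 0.789, had negative p107 differences too, whereas the other Nid1 probe set had an r of 0.05. With 8 arrays and a genotype split that many genes show, such likeness describes these arrays only.

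Within the keratin gene clusters, the members were set beside the other keratins, in gene order. Of 35 other keratin genes on the array, 9 fell with p107 loss averaged over both pRb genotypes, 2 rose and 24 did not pass (limma linear model), where 1.78% of all probe sets fell and 1.26% rose. The 9 that fell were all hair shaft keratins: Krt31, Krt32, Krt33a, Krt33b, Krt34 and Krt35 on chromosome 11 and Krt81, Krt83 and Krt86 on chromosome 15, with differences from -1.8 ± 0.15 for Krt35 to -1.51 ± 0.16 for Krt33b. The 2 that rose were Krt16, a stress keratin, by 1.56 ± 0.18 (adjusted p = 0.0432) and the suprabasal epidermal keratin Krt77 by 0.89 ± 0.06 (adjusted p = 0.023). Krt77 was high only on the pRb-/-;p107-/- arrays, at 1.59 and 1.45. It had -0.66 and -0.6 on pRb+/+;p107-/- arrays, -0.03 and 0.01 on pRb-/-;p107+/+ arrays, and -0.97 and -0.79 on pRb+/+ arrays. The measured keratins nearest to the members on the chromosome, other members aside, did not pass for p107 loss averaged over both pRb genotypes. Krt6b, next to Krt75, differed by 0.5 ± 0.07 (adjusted p = 0.0537). With p107 loss in pRb+/+ skin, however, Krt6b rose by 1.58 ± 0.1 (adjusted p = 0.0446). In pRb-/- skin Krt6b differed by -0.58 ± 0.1 without passing (adjusted p = 0.0952). Krt5, the basal keratin next to Krt71, differed by 1.48 ± 0.45 in the average (adjusted p = 0.158). Krt10, the nearest measured keratin beyond Krt27, differed by 1.52 ± 0.53 (adjusted p = 0.19), and Krt2, a suprabasal keratin beyond Krt72, by 0.53 ± 0.49 (adjusted p = 0.554). On the other side of Krt75, the shaft keratin Krt82 differed by -1.77 ± 0.28 (adjusted p = 0.0616), close to Krt75 in size.

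**Figure D4:**
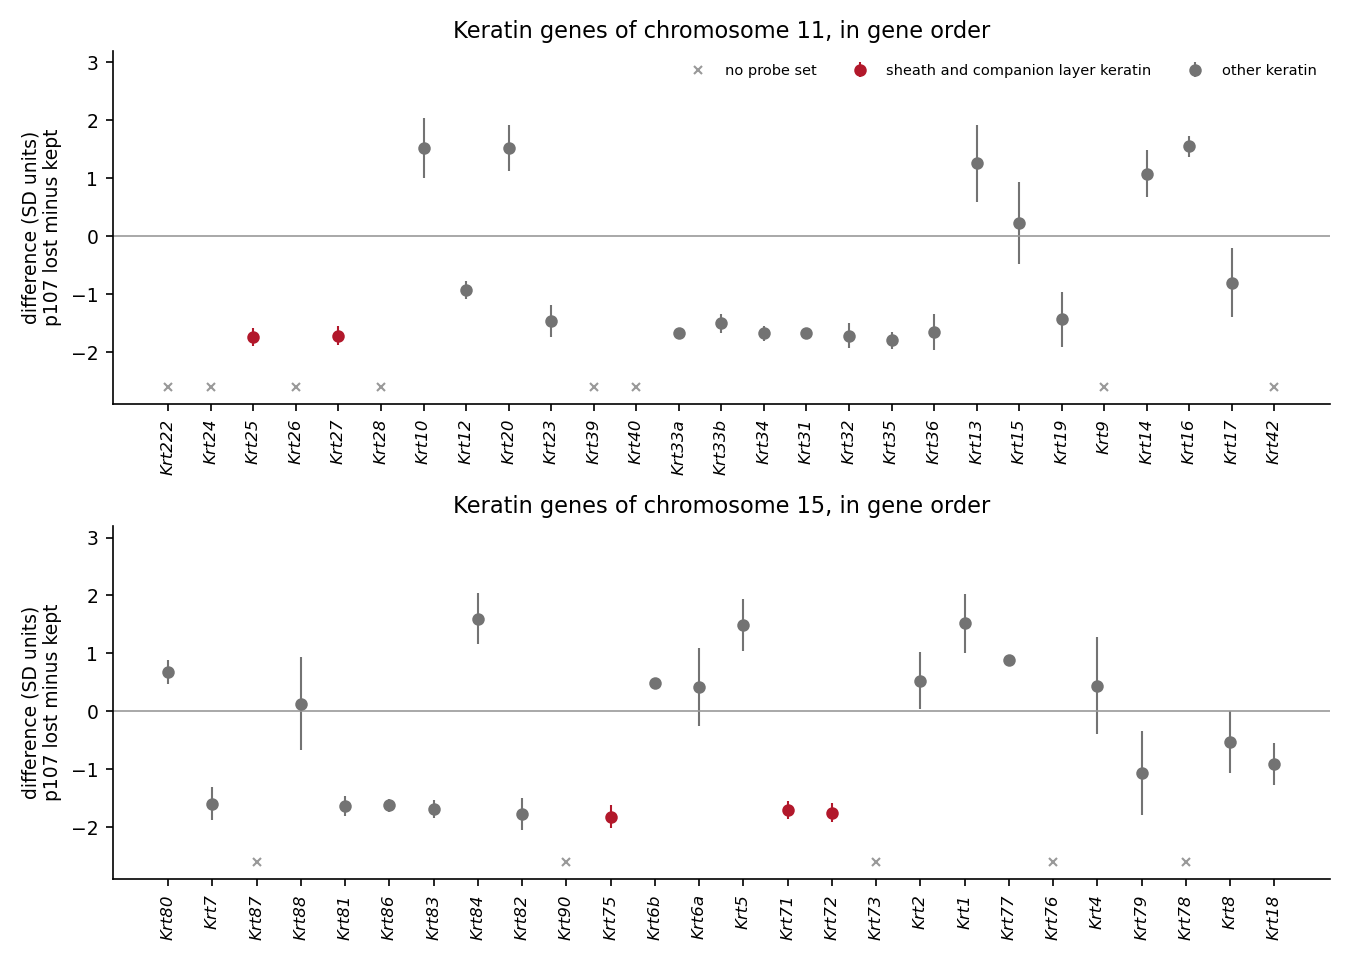
Difference in score for p107 loss averaged over both pRb genotypes (y axis, SD units, with the SE of the linear model) for the keratin genes of chromosomes 11 and 15 in their order along the chromosome, with crosses for genes without a probe set. The 5 sheath and companion layer keratins, in red, lie between -1.82 and -1.7, level with most hair shaft keratins and below the epidermal keratins beside them.

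The hair shaft keratins as a list, which earlier results on these arrays had already shown to be low, had 9 of 12 measured members that fell, 0 that rose and 3 that did not pass, with a median difference of -1.67 against 0.22 over all genes. Of those 3, Krt36 and Krt82 were negative, while Krt84 differed by 1.6 ± 0.44, opposite to the rest (limma linear model, adjusted p = 0.141). Their mean score was -0.84 to -0.45 on the p107-/- arrays, against 0.27 to 1.18 on the arrays that kept p107. Krt31, a shaft cortex keratin, had -1.2 and -1.19 on pRb-/-;p107-/- arrays, -0.42 and -0.53 on pRb+/+;p107-/- arrays, 0.44 and 0.29 on pRb-/-;p107+/+ arrays, and 1.33 and 1.28 on pRb+/+ arrays. On the pRb-/-;p107+/+ arrays the mean of the 12 shaft keratins was 0.33 and 0.27, while the mean of the 5 sheath and companion layer keratins was 0.87 and 0.66. The shaft mean includes Krt84, which had -0.78 and -0.81 on these arrays and so lowers it. On the pRb+/+ arrays those means were 1.01 and 1.18 for the shaft and 0.89 and 1.08 for the sheath and companion layer, and whether the lists differ in this was not tested.

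Proteins that work with the sheath keratins did not move as 1 group. Of 18 listed genes 14 were measured, and with p107 loss averaged over both pRb genotypes 2 fell, 3 rose and 9 did not pass, with a median difference of -1.05. Those that fell were Tchh, by 1.73 ± 0.14 (limma linear model, adjusted p = 0.0276), and Padi3, by 1.7 ± 0.11 (adjusted p = 0.0229). Trichohyalin, the Tchh product, fills sheath and medulla cells and binds their keratins, and the Padi3 enzyme converts its arginines to citrulline. Tchh had -0.91 and -1.11 on pRb-/-;p107-/- arrays, -0.79 and -0.65 on pRb+/+;p107-/- arrays, 0.19 and 0.65 on pRb-/-;p107+/+ arrays, and 1.4 and 1.22 on pRb+/+ arrays, which is the order of Krt25, Krt27 and Krt72. Padi1, of the same enzyme family, differed by -1.7 ± 0.39 without passing (adjusted p = 0.107).

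The 3 that rose are genes that epidermis also uses. Tgm3, a transglutaminase that cross-links sheath and cornified cell proteins, rose by 1.75 ± 0.19 (limma linear model, adjusted p = 0.0419), and the desmosomal cadherin genes Dsc1 and Dsc3 rose by 1.33 ± 0.12 (adjusted p = 0.0312) and 0.83 ± 0.06 (adjusted p = 0.0252). Dsc3 stood apart only in pRb+/+ skin, at -1.62 and -1.57 against 0.24 to 0.8 on the other 6 arrays. Dsc1 was 1.31 and 1.32 on pRb-/-;p107-/- arrays and -1.36 and -1.25 on pRb+/+ arrays. Its pRb+/+;p107-/- arrays (0.2 and -0.17) overlapped its pRb-/-;p107+/+ arrays (0.12 and -0.16), so it did not divide by p107 status. Tgm3 was 0.61 and 0.38 on pRb-/-;p107-/- arrays and 1.49 and 1.01 on pRb+/+;p107-/- arrays, against -0.84 and -0.99 on pRb-/-;p107+/+ arrays and -1.11 and -0.56 on pRb+/+ arrays.

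None of the 20 listed regulators of the sheath and follicle passed for p107 loss averaged over both pRb genotypes (limma linear model, median difference -0.45, 13 negative and 7 positive). Their mean score was -0.27 to -0.15 on the p107-/- arrays, against -0.1 to 0.4 on the arrays that kept p107, without overlap. These values rest on 1 probe set per gene. Runx1 counted at -1.57, but its other probe sets were positive, from 0.003 to 1.4. Dlx3 counted at 0.76, but its other probe set was at -1.01, and those of Bmpr1a differed in sign. Other probe sets of Ovol1, Vdr, Sox9, Fgfr2 and Tgfa kept the sign of the first. Gata3, which directs sheath fate, differed by 0.91 ± 0.38 (adjusted p = 0.246), opposite in sign to the keratins in this average. In pRb+/+ skin it differed by -0.17 ± 0.54 and in pRb-/- skin by 1.99 ± 0.54, without passing in either. Msx2, a homeobox gene of the matrix, differed by -1.69 ± 0.35 (adjusted p = 0.0946) and Shh, the Hedgehog ligand of the bulb, by 1.23 ± 0.21 (adjusted p = 0.0681). The Shh difference was 2.55 ± 0.29 in pRb+/+ skin and -0.1 ± 0.29 in pRb-/- skin, without passing in either. Egfr, the receptor of epidermal growth factor, differed by -1.57 ± 0.3 in its first probe set (adjusted p = 0.0801), but 3 of its other 4 probe sets were positive, at 0.84 ± 0.3, 1.13 ± 0.67 and 1.51 ± 0.46, without passing. Lef1, a Wnt effector of the matrix, differed by -1.01 ± 0.69 (adjusted p = 0.432). Probe sets of a regulator could disagree: 2 others of Cux1 passed upward, at 1.67 ± 0.16 (adjusted p = 0.0336) and 1.56 ± 0.16 (adjusted p = 0.0377), while its first differed by -0.28 ± 0.88 and 2 more by -1.51 ± 0.25 (adjusted p = 0.0651) and -1.52 ± 0.35 (adjusted p = 0.111).

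The outer root sheath and stress keratins, some of which the companion layer shares, had 1 of 7 that rose (Krt16) and 6 that did not pass, with a median difference of 0.5. Of the 7, 6 were positive and 1 negative, Krt17. The first Krt17 probe set, for a keratin of the outer root sheath, differed by -0.8 ± 0.59 (limma linear model, adjusted p = 0.465), and its other probe set by -1.57 ± 0.33 (adjusted p = 0.0938). Other probe sets of Krt6a differed by 1.14 ± 0.69 and 1.68 ± 0.27, and those of Krt14 by 0.75 ± 0.81 and -0.01 ± 0.89, without passing. The suprabasal epidermal keratins had 1 of 5 that rose (Krt77) and a median of 0.89, and the pRb-/-;p107-/- arrays had mean scores of 1.05 and 1.33 for them, against -0.74 to -0.15 on the other 6. The sheath and companion layer keratins were thus low on the pRb-/-;p107-/- arrays, where these epidermal keratins were highest. On the pRb+/+;p107-/- arrays the 5 keratins were also low, with means of -0.61 and -0.51. The epidermal keratins there had means of only -0.15 and -0.17, against -0.74 to -0.38 on the arrays that kept p107. For p107 loss in pRb+/+ skin their median difference was 0.25, against 0.4 over all genes. There 3 of the 5 epidermal keratins were positive, 2 were negative and 0 passed.

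**Figure D5:**
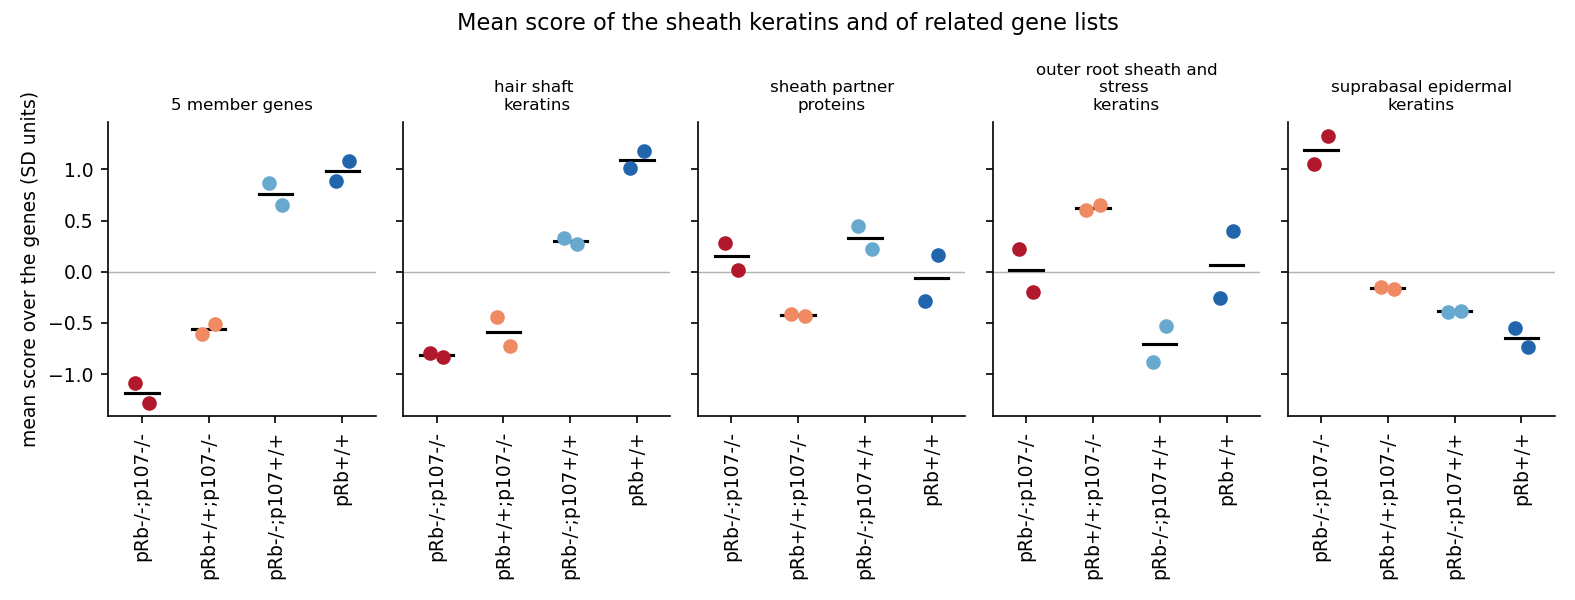
Mean score (y axis, SD units) of the 5 sheath and companion layer keratins and of 4 related gene lists by genotype, with a point for each array and a line at the mean of the 2 arrays. The shaft keratins divide by p107 status like the 5 members, whereas the means of the partner proteins and of the outer root sheath and stress keratins overlap between p107 statuses. The mean of the suprabasal epidermal keratins is -0.17 to 1.33 on p107-/- arrays, against -0.74 to -0.38 on the arrays that kept p107. It is above 0 only on the pRb-/-;p107-/- arrays, at 1.05 and 1.33.

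Markers of other cells of whole skin were examined beside this result. For p107 loss averaged over both pRb genotypes 0 of 8 skeletal muscle, 0 of 5 fibroblast and 0 of 6 dermal papilla markers passed, and 1 of 7 adipocyte markers fell, Adipoq (limma linear model, medians -0.61, -0.42, -0.18 and -0.56). Adipoq differed by 0.47 ± 0.18 in pRb+/+ skin (adjusted p = 0.284) and by -2.54 ± 0.18 in pRb-/- skin (adjusted p = 0.0313). In pRb+/+ skin the list medians for p107 loss were 0.25, 1.21, 0.44 and 0.47 in that order, against 0.4 over all genes. In pRb-/- skin they were -1.47, -1.26, -0.85 and -2.06, against -0.05 over all genes. The mean scores of these 4 lists overlapped between the p107-/- arrays and those that kept p107. Of 5 melanocyte markers 1 fell, Dct, a pigment enzyme gene, with a list median of -1.35 and a mean score of -1.16 to -0.01 on the p107-/- arrays against 0.19 to 1.04 on the arrays that kept p107. Another probe set of Tyr, the tyrosinase gene, also fell, at -1.53 ± 0.07 (adjusted p = 0.016), while the first, used in the count, differed by 0.15 ± 0.85 (adjusted p = 0.934). Melanocytes of the hair bulb lie beside the matrix cells that form the sheath. The part of these markers in the keratin differences was not tested.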

How the data were processed

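Whole skin RNA of newborn FVB mice was measured on Affymetrix arrays, with 2 arrays for each of 4 genotypes. Per the labels' protocols, total RNA came from 30 mg of skin and was labelled with biotin. The submitters' processing notes name RMA without a version. The authors deposited a score for each of 22690 probe sets, with mean 0 and SD 1 over the 8 arrays, a step that no label records, and the scale before it (log or linear) is not stated. A score cannot exceed 2.47 in size, so differences saturate, and the number of arrays limits the precision. The difference between 4 and 4 arrays has a lower ceiling, reached when p107 status holds the whole sum of squares. The 5 keratins came near it, with shares of 83% to 94.4%, so the size of their differences mostly tells how cleanly the arrays split. Whether a probe set was above background cannot be read from scores, so the tissue could not be checked by the presence of its markers.

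Groups came from the sample titles. Array controls (64 probe sets) were left out. The array annotation gave 20380 of the tested probe sets 1 symbol, 691 several and 1555 none, and lists used 1 probe set for each of 12393 genes (names ending in _at first, then the lowest number). A linear model with a mean per genotype (limma 3.58.1, R 4.3.3, 4 residual degrees of freedom) was tested without moderation, since that test is unchanged by standardization, with Benjamini-Hochberg adjustment across all 22626 probe sets and a threshold of 0.05. The fit was tested on simulated data. Named genes were all members, the 8 genes most correlated with their mean, and from the lists those past the threshold with examples. Genes named for disagreement or position (Cux1, Runx1, Dlx3, Bmpr1a, Krt17, Krt6a, Krt14, Krt6b, Krt5, Krt10, Krt2, Krt82) and examples of regulators were chosen after their values were seen. The members, lists and tests, the test without moderation and the averaged comparisons included, were chosen with earlier results of these data known. Alternatives were the moderated test, quantile normalization, subtraction of array medians, a replicate block, 1 probe set per gene and leaving out each array. Cross-hybridization between keratin genes was not examined, and protein sequences were not used here.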

Additional observations from a re-analysis of the deposited data

How the results depend on the processing

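For p107 loss averaged over both pRb genotypes, all 60 differences of the 5 keratins over the alternatives were negative, from -1.99 to -1.59 (adjusted p 0.0189 to 0.177), and the count of keratins past the threshold was 5 after quantile normalization, with array medians subtracted and with 1 probe set per gene. It was 0 with the moderated test and 0 with the replicate block (adjusted p 0.0859 to 0.11), and 0 to 1 without 1 array. Over all probe sets the downward calls for this comparison were 472 of 22626 after quantile normalization and 421 of 22626 with array medians subtracted. With 1 probe set per gene they were 213 of 12393, against 403 of 22626 without any of these changes. The replicate numbers are only numbers, since the duplicate differences of 6 pairs of genotypes correlated at -0.13 to 0.11. For loss of both proteins the count of 4 became 0 with the moderated test, 0 with the replicate block and 0 without any 1 array. It was 3 after quantile normalization, where Krt71 and Krt72 did not pass and Krt75 did, and with medians subtracted 4, with Krt75 in place of Krt71. For p107 loss in pRb-/- skin the count of 1 became 0 with the moderated test, 0 with array medians subtracted, 0 with the replicate block and 0 without any 1 array. For p107 loss in pRb+/+ skin, and among all 4 genotypes, 0 became 1 after quantile normalization. Fewer samples or residual degrees of freedom are part of the construction of the block and of leaving out arrays, while for the other changes the cause was not tested.

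Only differences that did not pass changed sign. Krt75 for pRb loss averaged over both p107 genotypes was 0.14 after quantile normalization and 0.0006 with medians subtracted. Without 1 array it ran from -0.22 to 0.13. For pRb loss where p107 was kept Krt75 was -0.0553 with medians subtracted and ran from -0.22 to 0.48 without 1 array. In p107-/- skin it was 0.21 after quantile normalization and 0.0566 with medians subtracted. The interaction after quantile normalization and with medians subtracted was 0.34 and 0.43 for Krt25, 0.0492 and 0.15 for Krt27, and 0.13 and 0.11 for Krt75. Without 1 array it ran from -0.30 to 0.22 for Krt25 and from -0.28 to 0.35 for Krt72.

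Over all probe sets, calls for p107 loss averaged over both pRb genotypes numbered 687, against 0 with the moderated test, 34 with the replicate block and 0 to 60 without 1 array. For loss of both proteins they were 666, against 0, 37 and 0 to 242, and 370 after quantile normalization. For p107 loss in pRb-/- skin 310 calls (186 downward) became 171 (94 downward) after quantile normalization and 137 (70 downward) with medians subtracted, 0 with the moderated test, 2 with the block and 0 to 17 without 1 array. The F test's 289 became 150, 97, 0, 3 and 0 to 4 under the same settings in that order. For p107 loss in pRb+/+ skin 49 of 95 calls were downward, against 51 of 76 after quantile normalization and 39 of 52 with medians subtracted. For pRb loss in p107-/- skin 18 of 58 were downward, against 12 of 77 and 0 of 2, and for pRb loss averaged over both p107 genotypes 12 of 41, against 2 of 12 with medians subtracted and 0 calls after quantile normalization.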
